A study of Mus musculus with 8 samples.

Results

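The nuclear factor I (NFI) family comprises *Nfia*, *Nfib*, *Nfic* and *Nfix*, and its members were taken as every row of the deposited RNA-Seq tables that carries one of these 4 symbols. They were 4 of the 24063 genes and 14 of the 33068 RefSeq transcripts listed, with 3 transcripts for *Nfia*, 5 for *Nfib*, 2 for *Nfic* and 4 for *Nfix*. RNA came from mouse tubuloids, which are epithelial spheroids and tubules that form in Matrigel out of pieces of renal tubule, here from kidneys taken, per the labels, at postnatal day 7 to 10. All mice carried *Pkd2* fl/fl, *Pax8*rtTA, *TetOCre* and mTmG, so that the *Pax8* promoter would drive a doxycycline-dependent Cre in renal tubule cells, and the labels name no doxycycline for these cultures. The 4 GDNF cultures (numbers 6, 12, 17 and 22) received growth factor medium with glial-derived neurotrophic factor for 24 h, the 4 control cultures (numbers 3, 7, 14 and 21) received the same medium without it, and all were collected on culture day 7. The labels do not say whether the cultures came from separate mice, and all p-values measure the spread between these cultures.

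NFI proteins bind DNA as dimers at a palindrome of TTGGC and GCCAA around a short spacer through a conserved N-terminal domain, and can activate or repress transcription through divergent C-terminal regions. They are best known for timing the differentiation of progenitor cells: NFIA and NFIB in glia and, for NFIB, the lung, NFIC in tooth roots, and NFIX in muscle and neural stem cells. In the kidney and urinary tract, loss of NFIA is linked to malformations in mice and in people, and *Nfia* and *Nfix* are among the factors ascribed to principal cells of the collecting duct. The study asked whether a GDNF pulse raised transcription factors of that cell type. The paper reports *Nfia* and *Nfix* among those that rose significantly, by one-sided tests, and describes no adjustment of these for the number of genes. The comparison here asks the question for the whole family, in either direction and with adjustment over all genes tested.

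The genes lie on chromosome 4 (*Nfia*, 97772734 to 98118874, plus strand, and *Nfib*, 82290173 to 82705750, minus strand), chromosome 10 (*Nfic*, 81396186 to 81455635, minus strand) and chromosome 8 (*Nfix*, 84699876 to 84800344, minus strand) of the mouse build GRCm38, as GENCODE M21 annotates them. In the GENCODE counterpart of every listed transcript, the second exon was coding and 532 nt long, and this exon encodes much of the DNA-binding domain. The same 150 nt of it, bases 53 to 202, are printed here for all 4 genes to show how alike and how distinguishable the members are, with capitals at the 110 positions where all 4 had the same base.
Nfia: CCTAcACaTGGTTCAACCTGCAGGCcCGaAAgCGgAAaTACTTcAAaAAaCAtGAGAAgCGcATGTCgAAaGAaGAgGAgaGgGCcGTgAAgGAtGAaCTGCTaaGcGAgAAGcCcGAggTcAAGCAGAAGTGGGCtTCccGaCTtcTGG
Nfib: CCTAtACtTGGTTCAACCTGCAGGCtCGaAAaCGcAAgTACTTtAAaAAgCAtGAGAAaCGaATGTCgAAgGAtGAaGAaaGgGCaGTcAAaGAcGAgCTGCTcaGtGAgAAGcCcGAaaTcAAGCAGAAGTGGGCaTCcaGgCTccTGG
Nfic: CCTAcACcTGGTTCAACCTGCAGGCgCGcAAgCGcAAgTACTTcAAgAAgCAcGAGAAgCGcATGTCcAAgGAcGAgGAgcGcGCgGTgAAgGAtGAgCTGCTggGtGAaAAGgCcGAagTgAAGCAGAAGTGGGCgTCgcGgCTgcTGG
Nfix: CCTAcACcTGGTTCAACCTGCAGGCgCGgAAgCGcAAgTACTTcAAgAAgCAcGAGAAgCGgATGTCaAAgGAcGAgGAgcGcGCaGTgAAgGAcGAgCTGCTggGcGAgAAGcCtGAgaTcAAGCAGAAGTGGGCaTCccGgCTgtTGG
On the genome these stretches are chr4:97783134-97783283 on the plus strand for *Nfia*, chr4:82498568-82498717 for *Nfib*, chr10:81420597-81420746 for *Nfic* and chr8:84772114-84772263 for *Nfix*, the last 3 on the minus strand.

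Over the whole exon, 351 of 532 positions (66.0%) were the same in all members, and pairs were between 75.8% (*Nfia* and *Nfic*) and 82.0% (*Nfic* and *Nfix*) identical. The differences were spread widely enough that no stretch of 75 nt, the read length, was shared by any pair among all GENCODE transcripts of the 4 genes on either strand. The longest exact match was 32 nt, between *Nfic* and *Nfix*. Against all other annotated genes, *Nfia*, *Nfib* and *Nfic* shared no 75 nt stretch, and *Nfix* shared 67 of its 7519 (0.89%) with *G430095P16Rik*, a gene that overlaps it by 137 nt on the opposite strand. *Gm16104*, annotated as antisense to *Nfic*, overlaps its exons by 72 nt, and the strand handling of the counting is not given in the sources used here.

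The data consisted of 8 libraries with a total of 72991721 to 97490625 transcript counts each, and the near-equal counts of transcripts of one gene show that shared reads entered each of them. TMM factors, which correct for composition, were 0.79 in control culture 3, 0.963 to 0.982 in the other controls and 1.07 to 1.11 in the GDNF cultures. *Xist* RNA exceeded the sum of 4 Y-linked genes in cultures 3, 7, 6 and 12, and the Y-linked genes were higher in the other 4, so that each group held 2 cultures of either kind. As markers of the labelled tissue, 8 genes of tubule epithelium together reached 347 to 2874 RPKM in controls and 667 to 1086 RPKM in GDNF cultures. Here RPKM is reads per kilobase of the gene's most counted transcript, scaled to a common TMM-corrected library size. Most of this sum came from the keratin genes *Krt8* and *Krt18* in every culture. Markers of mature segments were mixed. Of the 8 principal cell genes, the water channel *Aqp2* had 0 to 25 counts, whereas *Fxyd4* reached 4.82 to 57.9 RPKM and *Gata3* 6.31 to 22.9 RPKM. Of the 5 proximal tubule genes, *Slc34a1* had 0 to 6 counts and *Slc5a2* 5.01 to 9.42 RPKM. *Calb1* of the distal tubule was at 1.20 to 36.1 RPKM, and the intercalated cell gene *Slc4a1* had 0 or 1 counts. In such bulk samples, fewer cells of a type and less RNA per cell cannot be told apart.

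All members were detected in every culture, at low to moderate levels. *Nfic* was the most abundant in RPKM, at 8.48, 9.53, 12.9 and 10.1 in control cultures 3, 7, 14 and 21, and at 9.70, 11.5, 15.1 and 11.8 in GDNF cultures 6, 12, 17 and 22. Its highest values were in culture 14 of the controls and culture 17 of the GDNF cultures, and the groups overlapped. *Nfib* followed, at 6.36, 9.31, 4.14 and 9.36 RPKM in the controls and 10.9, 9.69, 6.11 and 11.4 RPKM after the pulse, in the same order of cultures. It was lowest in cultures 14 and 17, where *Nfic* was highest, and again the groups overlapped. *Nfix* was at 3.87, 5.62, 5.33 and 4.62 RPKM in the controls and at 5.94, 6.22, 4.73 and 4.97 RPKM after the pulse. *Nfia* was at 1.77, 3.00, 4.07 and 2.86 RPKM in the controls and at 3.32, 3.58, 4.31 and 4.82 RPKM after the pulse. For both of these genes the lowest value was in control culture 3, and 2 GDNF cultures lay above all controls.

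**Figure D1:**
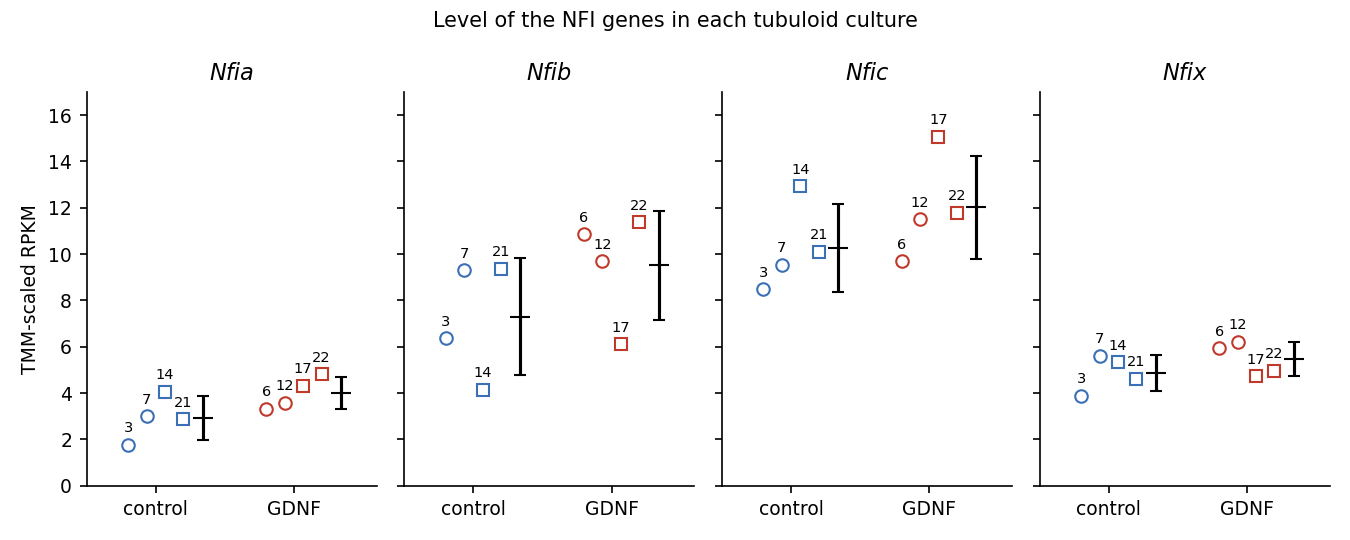
Level of each NFI gene (vertical axis, TMM-scaled RPKM of its most counted transcript) in the 4 control (blue) and 4 GDNF (red) cultures, numbered by culture; circles are cultures with *Xist* RNA, squares those with Y-linked RNA, and black marks show mean ± SD. The groups overlapped for each gene, and *Nfib* was lowest in cultures 14 and 17, where *Nfic* was highest.

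Over all 8 cultures, the means were 11.1 ± 2.14 RPKM for *Nfic*, 8.40 ± 2.56 for *Nfib*, 5.16 ± 0.767 for *Nfix* and 3.46 ± 0.956 for *Nfia* (SD, n = 8). Each pair of members was compared within cultures by an exact sign-flip permutation test (two-sided, 6 pairs, Benjamini-Hochberg adjusted). *Nfic* exceeded *Nfix* in 8 of 8 cultures, 2.15-fold on average (adjusted p = 0.0117, exact test). *Nfix* exceeded *Nfia* in 8 of 8, 1.53-fold (adjusted p = 0.0117, exact test). *Nfib* exceeded *Nfix* in 7 of 8, 1.57-fold (adjusted p = 0.0187, exact test), with culture 14 as the exception. The neighbours *Nfic* and *Nfib* did not differ beyond their spread, with *Nfic* higher in 7 of 8 cultures and 1.37-fold on average (adjusted p = 0.0625, exact test). Without GDNF culture 6, the culture in which *Nfib* was the higher, the adjusted p of this last pair was 0.0188 by the same exact test. This order holds for one transcript per gene: with deposited TPM summed over all listed transcripts, *Nfib* was above *Nfic* (mean log2 ratio 0.87, adjusted p = 0.0281, exact test) and *Nfic* and *Nfix* no longer differed past the threshold (0.20, adjusted p = 0.109, exact test). The coefficient of variation between cultures was 30.5% for *Nfib* and 27.6% for *Nfia*, compared with 19.2% for *Nfic* and 14.9% for *Nfix*.

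After the GDNF pulse the mean of each member was higher, while the groups overlapped in RPKM for every member. *Nfia* had the largest estimate, with 0.46 ± 0.24 (log2 fold change ± standard error, as in all such pairs from here on), and did not pass in the quasi-likelihood test of edgeR (Benjamini-Hochberg over 16557 genes, adjusted p = 0.279). The estimate for *Nfib* was 0.38 ± 0.28 (edgeR, adjusted p = 0.439), that for *Nfic* 0.23 ± 0.18 (edgeR, adjusted p = 0.467) and that for *Nfix* 0.17 ± 0.16 (edgeR, adjusted p = 0.555). None of the 4 genes passed an adjusted p of 0.05, at which 0% of all genes tested were called (0 genes), whereas 3665 genes (22.1%) had an unadjusted p of 0.05 or less. At that unadjusted level too, 0 of the 4 members passed. *Nfia* did pass it with *Xist* or Y-linked RNA as a term (log2 fold change 0.47), by library size only (0.65) and without control culture 14 (0.65), where its adjusted p in edgeR was 0.185 to 0.186. In these settings, 3974 of 16557, 4149 of 16557 and 3610 of 16754 genes passed that unadjusted level. By DESeq2, which called 1346 genes (14.7% of those given an adjusted p), the adjusted p-values of the 4 members lay between 0.224 (*Nfia*) and 0.586 (*Nfix*). All 4 log2 fold changes were positive, with a median of 0.305, compared with 52.5% positive and a median of 0.033 over all genes.

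Within the cultures with *Xist* RNA, the mean log2 RPKM was higher after the pulse by 0.58 for *Nfia*, 0.41 for *Nfib*, 0.23 for *Nfic* and 0.38 for *Nfix*. Within those with Y-linked RNA the differences were 0.42, 0.42 and 0.22 for the first 3 genes and -0.033 for *Nfix*, with 2 cultures per group in each kind. Summed over the members, the level was 20.5, 27.5, 26.5 and 26.9 RPKM in control cultures 3, 7, 14 and 21 and 29.8, 31.0, 30.2 and 33.0 RPKM in GDNF cultures 6, 12, 17 and 22. This sum, unlike its terms, did not overlap between the groups. Of single genes, 6.99% had every GDNF culture above every control on the same kind of scale (CPM with TMM normalisation). No overlap in either direction was found for 13.2%, and 0 of the 4 members were among them. The share was not computed for sums of 4 genes, so these values are no reference for the summed level.

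The NFI transcripts are long, and long transcripts as a class were higher in the GDNF libraries. The most counted transcripts were NM_010905 of *Nfia* with 9513 nt, NM_001113209 of *Nfib* with 9241 nt, NM_008688 of *Nfic* with 6295 nt and NM_001081982 of *Nfix* with 5626 nt. Among the 2585 genes tested whose most counted transcript exceeded 5000 nt, the median log2 fold change was 0.35 and 85.2% were positive. Among the 3587 genes of up to 1500 nt, the median was -0.32 and 32.9% were positive. The log2 fold changes of *Nfia* and *Nfib* lay above the median of the long class, and those of *Nfic* and *Nfix* below it.

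The share of counts in transcripts over 5000 nt was 8.40%, 13.8%, 13.3% and 14.04% in control cultures 3, 7, 14 and 21 and 14.8%, 17.5%, 18.4% and 18.9% in GDNF cultures 6, 12, 17 and 22. Every GDNF culture thus lay above every control in this share, as in the summed NFI level, and culture 3 was the lowest in both. When a smooth trend on transcript length was removed from each culture before the fit, the log2 fold changes were 0.040 for *Nfia*, -0.024 for *Nfib*, -0.10 for *Nfic* and -0.095 for *Nfix*, with adjusted p-values from 0.763 to 0.978 (edgeR). The positive sign thus held for 1 of the 4 genes under that correction, and with a GC trend removed as well it held for *Nfia* (0.12) and *Nfib* (0.065), while *Nfic* and *Nfix* were at -0.22 each. The length trend and the group cannot be told apart in these libraries.

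**Figure D2:**
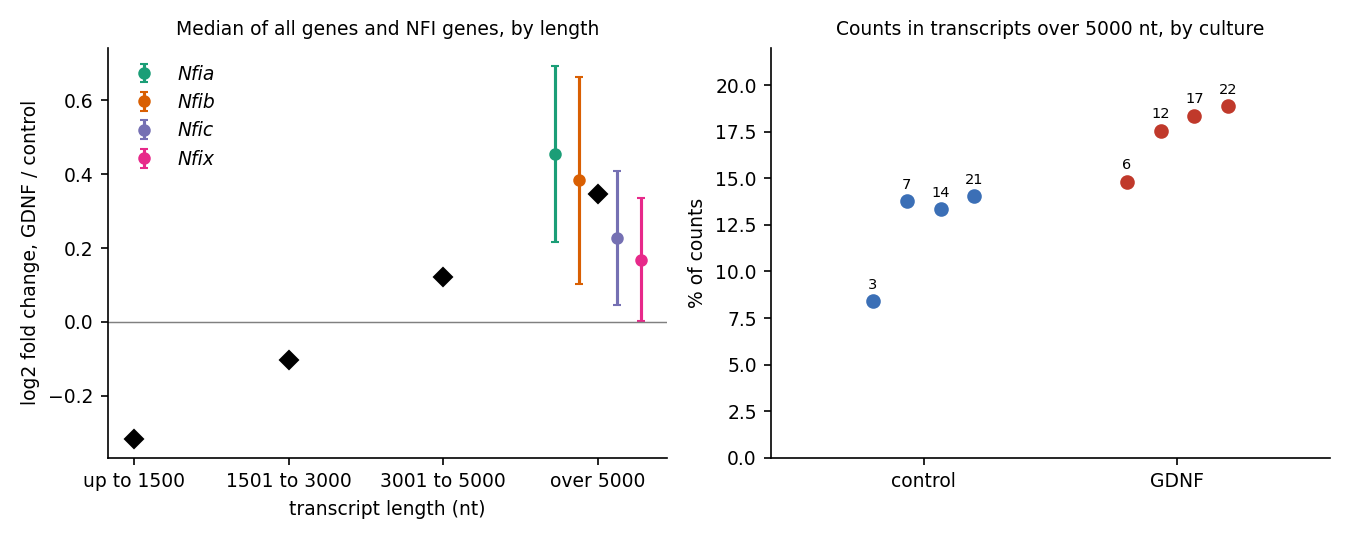
Left, median log2 fold change (GDNF over control) of all genes tested in 4 classes of transcript length (black diamonds), with the NFI genes and their standard errors beside the class over 5000 nt, all from the fit with one transcript per gene. Right, percent of each culture's counts in transcripts over 5000 nt, which was 14.8% to 18.9% in the GDNF cultures and 8.40% to 14.04% in the controls.

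Scaling moved all members together. By library size alone, without the composition factor, the log2 fold changes were 0.65 for *Nfia*, 0.59 for *Nfib*, 0.43 for *Nfic* and 0.37 for *Nfix*, while the median of all genes was 0.25. In the deposited TPM of the most counted transcript, which carry no composition factor either, *Nfix* was at 4.81 ± 1.304 in controls and 6.96 ± 0.791 after the pulse (SD, n = 4), and the groups did not overlap (exact permutation test, two-sided, p = 0.0286, the smallest that 70 assignments allow). On that scale 20.6% of all genes tested had every GDNF culture above every control, and 78.8% had a higher mean. *Nfia* was at 2.94 ± 1.18 and 5.14 ± 1.12 TPM (SD, n = 4; p = 0.0571 by the same exact test), the largest log2 ratio of means of the 4 genes (0.81). *Nfic* was at 10.1 ± 2.92 and 15.4 ± 3.16 TPM (SD, n = 4; p = 0.0571 by the same exact test), and *Nfib* at 7.23 ± 3.17 and 12.1 ± 3.17 TPM (SD, n = 4; p = 0.0857 by the same exact test).

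**Figure D3:**
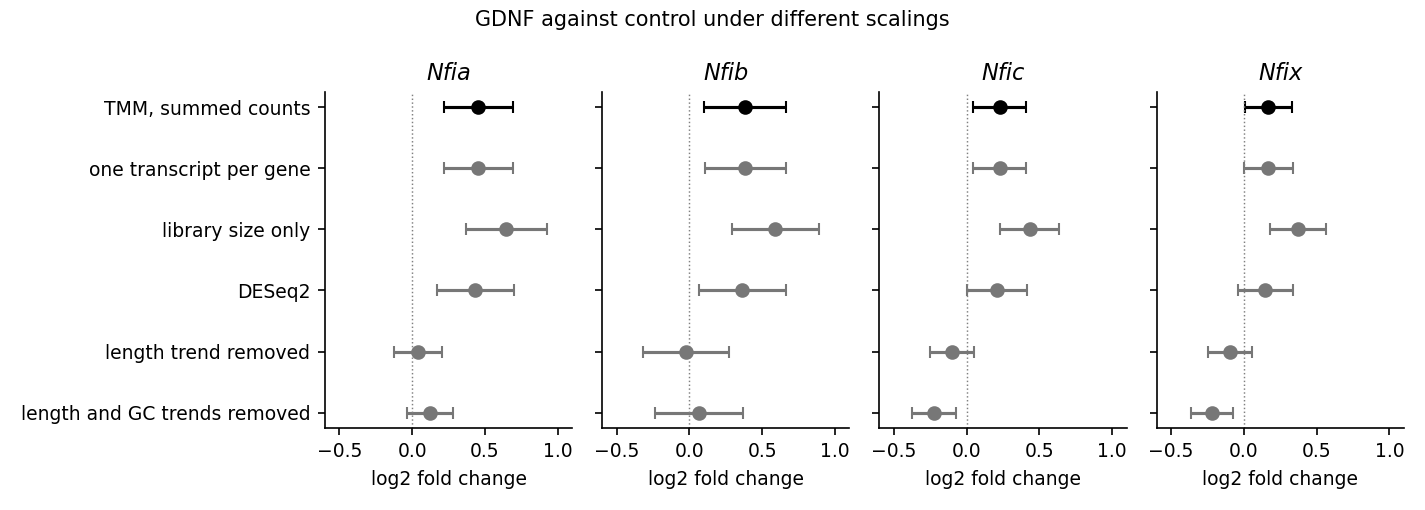
Log2 fold change of each NFI gene between GDNF and control cultures (horizontal axis, with standard error) under 6 ways of scaling or summing the counts. The estimates were highest by library size only and lay between -0.22 and 0.12 once length, or length and GC, trends were removed.

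The ratio of 2 members within a culture is free of the scaling factor of its library, though not of transcript length or of the mix of cells, and was compared between the groups. The largest difference between groups was that of *Nfia* to *Nfix*, with a log2 ratio of counts 0.325 higher after the pulse (exact permutation test, two-sided, p = 0.257, adjusted p = 0.771 over 6 pairs). With permutations only among cultures of the same *Xist* or Y-linked kind, its p was 0.0556 (exact test), the smallest that 36 assignments allow, and unadjusted. The *Nfia* transcript is the longer one. With the length trend removed the log2 fold changes of *Nfia* and *Nfix* were 0.040 and -0.095, against 0.46 and 0.17 without that correction. The part of transcript length in this ratio was not tested. The other 5 pairs had differences between 0.053 (*Nfic* to *Nfix*) and 0.27 (*Nfia* to *Nfic*), with adjusted p-values between 0.771 and 0.857 by the same exact test. The SD of these log2 ratios between cultures of a group was 0.222 to 0.857, highest for *Nfia* to *Nfib* in the controls, and none of the 6 differences passed the test.

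*Nfib* was low relative to each of the other members in 2 cultures, in both groups alike. The ratio of *Nfib* to *Nfic* in RPKM was 0.750, 0.977, 0.320 and 0.927 in control cultures 3, 7, 14 and 21 and 1.12, 0.842, 0.406 and 0.965 in GDNF cultures 6, 12, 17 and 22. The low ratios were those of cultures 14 and 17, 1 from each group. The ratio of *Nfia* to *Nfib* was 0.983 in culture 14 and 0.705 in culture 17, against 0.278 to 0.423 in the other 6. That of *Nfib* to *Nfix* was 0.776 in culture 14 and 1.292 in culture 17, against 1.559 to 2.288 in the other 6.

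Many, but not all, marker genes set these 2 cultures apart. The cultures had been picked by their *Nfib* level, and the share of all genes that set them apart was not computed. The counts of markers given here are thus a description only. Of the 8 stromal and fibroblast markers, 6 were higher in cultures 14 and 17 than in the other 6 cultures, the exceptions being *Lum*, at 9.82 RPKM in culture 17, and *Col1a1*, highest in GDNF culture 12 (139.5 RPKM). Of the 8 epithelial markers, 5 were lower in both than in the other 6, and *Krt8*, *Krt18* and *Pax8* were not. The 4 podocyte markers were all higher in both. *Epcam*, an epithelial adhesion molecule, was at 64.3 RPKM in culture 14 and 58.1 RPKM in culture 17, and at 83.6 to 240 RPKM elsewhere. *Dcn*, which encodes the stromal proteoglycan decorin, was at 174 and 60.9 RPKM in these 2 cultures and at 3.14 to 39.0 RPKM elsewhere. The 8 stromal and fibroblast markers summed to 1007 RPKM in culture 14 and 675 RPKM in culture 17, compared with 113 to 575 RPKM in the other 6, and the 4 podocyte markers to 97.8 and 85.1 RPKM, compared with 20.3 to 57.7 RPKM. The 8 epithelial markers together were lowest in culture 14 (347 RPKM), while culture 17 (729 RPKM) was not set apart from GDNF culture 22 (667 RPKM). Most of this sum came from *Krt8* and *Krt18*, at 234 and 319 RPKM in culture 17 and 187 and 262 RPKM in culture 22. It therefore says little about the other genes of the list. The next lowest ratio of *Nfib* to *Nfic*, in control culture 3, went with the highest *Epcam* (240 RPKM) and a low stromal sum (149 RPKM). Between the groups the summed stromal markers overlapped, at 149 to 1007 RPKM in controls and 113 to 675 RPKM after the pulse. The part of cell composition in the levels of the NFI genes was not tested.

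**Figure D4:**
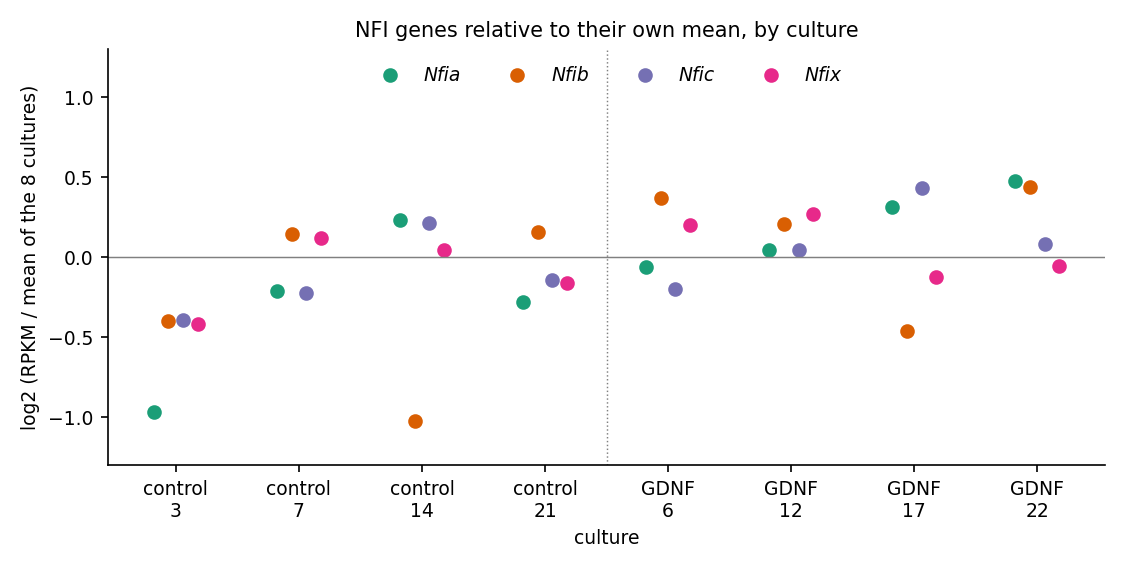
Level of each NFI gene in each culture relative to its own mean over the 8 cultures (vertical axis, log2 ratio of TMM-scaled RPKM; controls left of the dotted line, GDNF cultures right). *Nfib* lay lowest in control culture 14 and GDNF culture 17, where *Nfia* and *Nfic* lay above their means, and all 4 genes lay below their means in control culture 3.

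The genes whose pattern over the 8 cultures was most like that of each member were found among 11457 genes with a mean of at least 5 CPM, by the Pearson correlation of log2 CPM, given here as a description over cultures that share group, depth and composition. For *Nfib* they were *Gabrp*, a GABA-A receptor subunit gene (r = 0.998), *Bicd1*, a dynein adaptor gene (r = 0.986), and *Slco4a1*, an organic anion carrier gene (r = 0.981). *Gabrp* had 6.98 and 12.4 RPKM in cultures 14 and 17 and 13.3 to 36.5 RPKM elsewhere. For *Nfic* they included *Fam219a* (r = 0.995) and *Eng*, which encodes the TGF-beta co-receptor endoglin (r = 0.993). For *Nfia* they were the autophagy gene *Epg5* (r = 0.993), the cholesterol hydroxylase gene *Cyp46a1* (r = 0.993) and the palmitoyltransferase gene *Zdhhc17* (r = 0.988). For *Nfix* the closest were less close: *Mon2* (r = 0.934), the kinesin light chain gene *Klc2* (r = 0.928) and *Srebf1*, a regulator of lipid synthesis (r = 0.928). No gene was common to the lists of any pair of members. With the group means removed, these correlations were between 0.912 and 0.998. The genes were picked as the highest of 11457 correlations over 8 cultures, and how high such maxima run by chance was not computed.

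The listed transcripts of a gene carried nearly the same counts, so that the tables give little information on isoforms. Each listed transcript had between 93.4% and 100.6% of the count of its gene's most counted transcript in every culture. For *Nfia*, NM_010905 exceeds NM_001122953 by 129 nt, the exact length of a coding exon (chr4:98041551-98041679, plus strand) that the GENCODE counterpart of the latter lacks. For *Nfix*, NM_001081982 exceeds NM_010906 by 123 nt, likewise the length of a coding exon (chr8:84723728-84723850, minus strand). The sequences of these alternative exons, which lie outside the part that encodes the DNA-binding domain, are given 5′ to 3′ in lower case, since only they separate the transcripts of each pair.
Nfia exon of 129 nt: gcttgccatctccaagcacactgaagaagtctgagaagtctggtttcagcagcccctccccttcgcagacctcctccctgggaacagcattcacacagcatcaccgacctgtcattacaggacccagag
Nfix exon of 123 nt: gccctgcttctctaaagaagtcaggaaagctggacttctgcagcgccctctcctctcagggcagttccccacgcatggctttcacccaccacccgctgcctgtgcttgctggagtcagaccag
The *Nfia* exon added 6, 29, 21 and 20 counts in control cultures 3, 7, 14 and 21 and 26, 42, 18 and 27 counts in GDNF cultures 6, 12, 17 and 22, which was 0.70% to 1.92% of the count of NM_010905. The *Nfix* exon added 15, 32, 42 and 16 counts in the controls and 37, 48, 37 and 31 counts after the pulse, or 1.14% to 2.34% of the count of NM_001081982. For both exons the extra counts of the groups overlapped. A length difference of 27 nt between 2 *Nfib* transcripts changed the count by 0 to 5, and one of 77 nt in *Nfic* by 1 to 5.

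With each transcript tested on its own over 24475 transcripts, none of the 14 NFI transcripts passed an adjusted p of 0.05 in edgeR, at which 0% of all transcripts (0) were called. At an unadjusted p of 0.05, 5430 transcripts (22.2%) and 0 of the 14 were past the threshold. Their log2 fold changes followed their genes, from 0.44 for each of the 3 *Nfia* transcripts to 0.15 for NM_010906 of *Nfix*. The share of each transcript in the sum over its gene differed between groups by at most 0.109 percentage points, for NM_010906, with adjusted p-values of 0.967 or above over the 14 transcripts (exact permutation test, two-sided). For transcripts that share nearly all their reads, this compares the few counts that separate them.

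Genes linked to the family were looked at as lists, without a set test. Of 14 genes reported as NFI targets in other tissues, 11 could be tested, and 0 passed an adjusted p of 0.05 or an unadjusted p of 0.05 in edgeR. The median log2 fold change of the 11 was -0.13, against 0.033 over all genes. The list was not split by whether NFI activates or represses each gene, so this median is no measure of NFI activity. The integrin gene *Itga6* was at 0.29 ± 0.26 and *Igfbp5*, an IGF-binding protein gene, at 0.29 ± 0.27. *Cdkn1a*, the cell cycle inhibitor p21, was at 315, 124, 83.5 and 246 RPKM in controls 3, 7, 14 and 21 and at 200, 143, 107 and 124 RPKM in GDNF cultures 6, 12, 17 and 22, with overlapping groups. The neural targets *Gabra6* and *Mmd2* had 0 counts in 8 and 7 cultures, respectively. *Fabp7*, a brain-type fatty acid binding protein gene driven by NFI in glia, was at 3.69 to 10.7 RPKM in controls and 3.09 to 10.7 RPKM after the pulse.

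Of 7 partners and regulators of NFI proteins, 6 could be tested and 0 passed an adjusted p of 0.05. At an unadjusted p of 0.05, where 22.1% of all genes passed in either direction and 9.25% upward, 1 did. This was *Pparg*, the adipogenic nuclear receptor gene with which NFIA acts in fat cells, at 4.40, 3.96, 3.55 and 2.78 RPKM in controls 3, 7, 14 and 21 and 7.30, 4.32, 4.60 and 6.57 RPKM in GDNF cultures 6, 12, 17 and 22. Its groups overlapped at culture 3 and its log2 fold change was 0.63 ± 0.24 (edgeR, adjusted p = 0.183). *Ski*, a transcriptional co-repressor gene, was at 0.52 ± 0.24 (edgeR, adjusted p = 0.234), and *Hes1*, a Notch effector gene that NFIA represses in the developing brain, at -0.34 ± 0.23 (edgeR, adjusted p = 0.403). *Pax6* had 3 to 25 counts in the controls and 29 to 48 after the pulse, or 1.34 ± 0.63 (edgeR, adjusted p = 0.241). The 3 subunits of NF-Y, the factor that binds the CCAAT box with which NFI was once grouped, had log2 fold changes from -0.16 (*Nfyb*) to -0.040 (*Nfya*), and 0 of the 3 passed.

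Of the 8 stromal and fibroblast markers, 0 passed an adjusted p of 0.05 in edgeR. At an unadjusted p of 0.05, which 22.1% of all genes passed in either direction and 12.9% downward, 1 did, *Lum*. *Lum*, the gene of the matrix proteoglycan lumican, was at 13.1, 16.7, 45.2 and 17.1 RPKM in controls 3, 7, 14 and 21 and at 10.7, 9.97, 9.82 and 7.04 RPKM in GDNF cultures 6, 12, 17 and 22, with no overlap and an estimate of -1.295 ± 0.37 (edgeR, adjusted p = 0.167). Of all genes tested, 13.2% had no overlap between the groups in either direction (CPM with TMM normalisation). The adjusted p of *Lum* was the smallest of all genes, and many genes shared it. The median log2 fold change of the stromal list was -0.01, and 4 of its 8 genes were positive. The principal cell list had a median of 0.45 over the 7 genes tested, of which 6 were positive (52.5% of all genes were) and 0 passed. The summed level of this list was 98.4 RPKM in GDNF culture 6 and 18.2 to 48.7 RPKM in GDNF cultures 12, 17 and 22. In the controls it was 12.9 to 47.8 RPKM. Among the 8 tubule epithelium genes, 0 passed an adjusted p of 0.05 in edgeR and 1 passed an unadjusted p of 0.05. This was *Krt8*, a simple epithelial keratin gene, at -1.45 ± 0.63 (edgeR, adjusted p = 0.216). It was at 900 and 1139 RPKM in control cultures 3 and 21 and at 96.8 to 247 RPKM in the other 6 cultures. In the remaining 8 lists (intercalated cell, proximal tubule, loop and distal tubule, podocyte, nephron progenitor, endothelial, macrophage and blood, glia and neuron), with 1 to 4 genes tested in each, 0 genes passed an adjusted or an unadjusted p of 0.05, and the medians ran from -0.61 to 0.47.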

How the data were processed

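RNA from 8 tubuloid cultures was measured by poly-A selected SMART-Seq v4 RNA-Seq (75 bp paired-end). The authors mapped the reads to mm10 with STAR on the BasePair platform, and the submitters' processing notes also name featureCounts and DESeq2, without versions. The counts deposited are whole numbers per RefSeq transcript, not normalised. The authors' FPKM divide them by transcript length and total count: the implied length was whole (within 0.01 nt) for 100% of 29020 detected transcripts, and FPKM served only to obtain lengths. The deposited TPM sum to the same total in every culture. Shared reads appear in each transcript of a gene, which inflates sums of genes with many transcripts but not their fold changes.

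Groups and culture numbers came from the titles. Summed counts of each symbol went into edgeR 4.0.16 (R 4.3.3: filterByExpr, TMM, glmQLFit, glmQLFTest, Benjamini-Hochberg, adjusted p of 0.05), with standard errors as the absolute log2 fold change over the square root of F. The fits were first tested on simulated data with known fold changes. A simulated 2-fold difference was detected in 51% of cases by edgeR and in 62.5% by DESeq2. For 4-fold differences the shares were 98% and 99%. Differences below 2-fold, such as the NFI estimates, were not simulated. A member that did not pass may therefore still differ between the groups. RPKM used the transcript with the highest mean count and TMM factors over one transcript per gene. Exact permutation tests enumerated 70 assignments. Alternatives were DESeq2 1.42.0, other size factors, no filter, one transcript per gene, an *Xist* or Y-linked term, length trends (5 degrees of freedom), deposited TPM, other transcripts for the level, and leaving out each culture. The length and GC trend was added after seeing the data (97.6% of genes had a GC value). Members, lists and tests were chosen with earlier results of these data known. Genes named are the members, up to 4 of each list by smallest p, and the 3 most correlated genes per member (1 of those for *Nfic* is not reported here); *Fabp7*, *Mmd2*, *Gabra6* *Col1a1*, *Krt18*, *Pax8* and the segment markers (*Aqp2*, *Fxyd4*, *Gata3*, *Slc4a1*, *Slc34a1*, *Slc5a2*, *Calb1*) were named after their values were seen. Sequences are from GENCODE M21 (GRCm38), matched through its RefSeq table, and the other steps ran in Python 3.11.15 (matplotlib 3.10.9, pandas 2.3.3, NumPy 2.4.6).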

Additional observations from a re-analysis of the deposited data

Results flagged for a closer look

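Of 20 groups of 4 values examined (levels of the members and ratios between them, in each group), 1 held a culture far from the others, where chance gives about 1 in 20. The ratio of *Nfia* to *Nfib* in RPKM was 0.983 in control culture 14, against 0.278 to 0.322 in the other 3 control cultures.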

How the results depend on the processing

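None of the log2 fold changes of the 4 genes passed an adjusted p of 0.05 in any of the edgeR or DESeq2 alternatives. Their direction turned where the length trend was removed, for *Nfib* (-0.024), *Nfic* (-0.10) and *Nfix* (-0.095), and where GC was removed too, for *Nfic* (-0.22) and *Nfix* (-0.22). At an unadjusted p of 0.05, *Nfix* passed in deposited TPM (log2 ratio of means 0.53), and *Nfia* with *Xist* or Y-linked RNA as a term, by library size only and without control culture 14. In the settings named for *Nfia*, 3974, 4149 and 3610 of all genes passed, in the same order. DESeq2 called 1346 genes and edgeR 0, while 0 members were called by either, and the cause of the difference between the tools was not tested. The split of genes at an unadjusted p of 0.05 went from 41.8% higher with TMM to 79.5% by library size only and 31.9% with the length trend removed, and was 27.7% without control culture 21. The 3665 genes at that level were 2192 without GDNF culture 22, 2321 without GDNF culture 12 and 2359 without control culture 3. With TPM summed over transcripts, which adds the shared reads of all 5 *Nfib* transcripts, the log2 level of *Nfib* relative to *Nfic* turned to 0.87 and passed (adjusted p = 0.0281, exact test), and that of *Nfic* relative to *Nfix* became 0.20 and no longer passed (adjusted p = 0.109, exact test).

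With each culture left out in turn, *Nfia* stayed between 0.28 and 0.65, *Nfib* between 0.19 and 0.55, *Nfic* between 0.10 and 0.36 and *Nfix* between 0.073 and 0.25. The low ends for *Nfia* and *Nfix* were without control culture 3, that for *Nfib* without control culture 14 and that for *Nfic* without GDNF culture 17. The level of *Nfib* relative to *Nfic* ranged from -0.54 to -0.285 (log2). Differences between groups in log2 ratios ranged from -0.16 to 0.51 for *Nfia* to *Nfib*, from -0.17 to 0.51 for *Nfib* to *Nfic*, from -0.049 to 0.41 for *Nfib* to *Nfix* and from -0.13 to 0.19 for *Nfic* to *Nfix*.

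Differences in transcript share (percentage points) crossed 0 for NM_001122952 (-0.0427 to 0.173), NM_001122953 (-0.139 to 0.0381), NM_010905 (-0.0371 to 0.0307), NM_001113210 (-0.0218 to 0.0006), NM_001286131 (-0.0105 to 0.028), NM_008688 (-0.0105 to 0.0013), NM_026756 (-0.0013 to 0.0105), NM_001081982 (-0.0595 to 0.0503) and NM_001297601 (-0.0162 to 0.0875). Counted as a percentage of the most counted transcript, NM_001113210 differed by 0.0427 in the other direction. No paired analysis was possible because the groups share no culture numbers. Counting error was small beside the variation between cultures, with no fewer than 741 counts for any listed transcript of the family in any culture.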
